A study of Mus musculus with 2 samples.

Results

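The collagen genes were examined in maps of open chromatin from AB22 cells, a mouse malignant mesothelioma line. Members were all coding genes of the mm10 annotation whose symbol reads Col, a number, the letter a and a number. This gave 44 genes of 21887. In ATAC-seq the transposase Tn5 cuts accessible DNA and tags it with sequencing adapters, so that a peak marks a stretch that was open in many cells. The 2 groups were AB22 cells with a control hairpin (shCTRL) and AB22 cells with a hairpin against Hmgb1 (shHMGB1), with 1 library each. Both lines carried the doxycycline-inducible pTRIPZ vector, delivered by virus at a multiplicity of 20, were selected with puromycin at 4 μg/mL, and were used 7 to 10 days after 1 μM doxycycline was added, at an oxygen level given as 5%. Neither library has an irradiation dose in its labels, and the labels do not say whether the selected cells were a clone or a pool. With 1 library per condition replicate variation is unknown, so no p-value is given, and every interval below covers counting error only.

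Collagens are secreted proteins in which 3 chains wind into a triple helix. Fibrillar chains assemble into the tensile fibres of connective tissue, type IV chains form the mesh of basement membranes, and fibril-associated chains decorate the fibre surface. Mesothelioma is known for a collagen-rich matrix. Accessibility of a gene does not measure its RNA or protein.

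The peak lists held 104336 peaks in shCTRL and 92282 in shHMGB1, and 16275 and 14634 nucleosome-free regions. Pileup is the number of fragments that cover a summit. Each library had 1 expected pileup for the whole genome, 2.79 fragments in shCTRL and 1.68 in shHMGB1, and the lowest listed pileups were 10 and 7, so a missing peak means a pileup under the listing limit and not a closed site. Of 12 mesothelial markers, only Msln (pileup 22 in shCTRL and 12 in shHMGB1) and Pdpn (16 and 13) had an end summit in both libraries, and 7, among them Krt8, Krt18 and Upk3b, had none in either. Of 6 fibroblast markers other than collagens, Pdgfrb (27 and 26) and Thy1 (15 and 14) had an end summit in both. Of 6 chondrocyte markers 3 did, led by Sox9 (30 and 23), and of 5 leukocyte, 5 epithelial and 4 endothelial markers 1, 1 and 0 did. Of all coding genes 52% had an end summit in both libraries and 40.5% had none in either.

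A start or 3′ end was listed as open in both lines for under 50% of the collagen genes, led by Col16a1 and Col1a2. Fibrillar genes made up 8 of these, and no transmembrane collagen gene was among them. A summit within 1 kb of an annotated gene end was listed in both libraries for 19 of the 44 members (43.2%), against 52% of all coding genes. For 3 members it was found only among the shCTRL summits (5.79% of all coding genes) and for 2 only among those of shHMGB1 (1.73%). For 20 no summit was listed (40.5%). Among members with an end summit the median of the highest pileup was 23 in shCTRL (22 genes) and 18 in shHMGB1 (21 genes), against 39 and 35 over all coding genes with one. Col16a1 and Col1a2 stood apart from the rest, as the plot of end pileups shows. By collagen type, 8 of 11 fibrillar genes, 3 of 6 type IV genes, 3 of 6 type VI genes and 3 of 9 fibril-associated genes had an end summit in both libraries. The 4 transmembrane collagen genes, Col13a1, Col17a1, Col23a1 and Col25a1, had 0. No highest end summit of a member lay within 1 kb of an end of another coding gene, except that Col4a1 and Col4a2 share theirs.

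**Figure D1:**
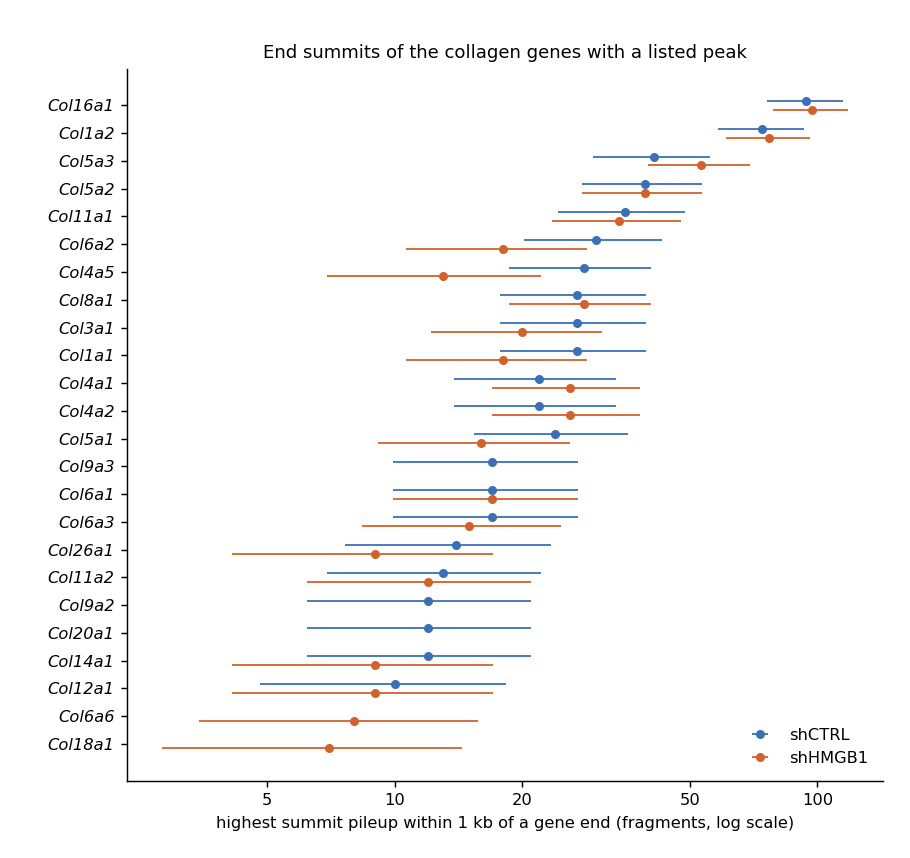
Highest summit pileup within 1 kb of a gene end for the 24 collagen genes with a listed end summit, in fragments on a log scale, in shCTRL (blue) and shHMGB1 (orange). Bars are exact Poisson 95% intervals for counting error, and a missing point means that no summit was listed; Col16a1 (94 and 97) and Col1a2 (74 and 77) are the highest in both libraries.

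The starts that the results turn on are shown as RefSeq sequence. The first pair are the highest starts, the next is the tallest of type V, Col8a1 and Col4a5 are the members farthest above and below the median gene, and Col24a1 had no end summit but strong summits inside the gene. Each line gives the bases just upstream of the annotated gene (build GRCm38.p6), 5′ to 3′ on the strand of the gene, up to 250 bases before the transcript start. Capitals mark matches, in either orientation, to CCAAT (the CCAAT box), GGGCGG (the GC box), TATAAA (the TATA box), TGANTCA (the AP-1 site), TGACGTCA (the cyclic AMP response element) or GGAATG (the TEAD site). None of these motifs contains another.
Col16a1 (chr4:130047590-130047816, plus strand): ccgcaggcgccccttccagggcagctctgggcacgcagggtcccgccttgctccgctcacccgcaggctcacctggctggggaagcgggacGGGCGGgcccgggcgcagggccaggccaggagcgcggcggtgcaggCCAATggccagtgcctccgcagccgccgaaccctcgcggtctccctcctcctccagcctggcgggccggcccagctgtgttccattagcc
Col1a2 (chr6:4505368-4505617, plus strand): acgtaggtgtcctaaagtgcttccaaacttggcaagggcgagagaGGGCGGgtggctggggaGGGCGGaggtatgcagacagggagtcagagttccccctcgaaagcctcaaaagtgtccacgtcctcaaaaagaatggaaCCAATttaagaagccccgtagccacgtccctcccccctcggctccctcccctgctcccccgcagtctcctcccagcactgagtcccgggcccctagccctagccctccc
Col5a3 (chr9:20815118-20815317, minus strand): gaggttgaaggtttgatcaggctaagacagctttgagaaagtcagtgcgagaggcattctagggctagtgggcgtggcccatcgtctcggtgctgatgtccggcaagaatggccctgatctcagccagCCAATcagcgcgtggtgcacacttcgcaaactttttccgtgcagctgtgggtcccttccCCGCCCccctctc
Col8a1 (chr16:57754738-57754987, minus strand): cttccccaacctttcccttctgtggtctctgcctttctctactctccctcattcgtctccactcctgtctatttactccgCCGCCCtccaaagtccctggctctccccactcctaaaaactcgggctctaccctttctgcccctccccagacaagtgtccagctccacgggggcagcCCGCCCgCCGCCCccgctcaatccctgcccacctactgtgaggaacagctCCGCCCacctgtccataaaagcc
Col4a5 (chrX:141475169-141475369, plus strand): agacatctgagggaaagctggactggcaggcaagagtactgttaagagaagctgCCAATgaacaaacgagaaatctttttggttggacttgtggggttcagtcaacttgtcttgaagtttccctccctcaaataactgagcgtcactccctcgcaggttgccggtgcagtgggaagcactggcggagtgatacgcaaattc
Col24a1 (chr3:145292222-145292471, plus strand): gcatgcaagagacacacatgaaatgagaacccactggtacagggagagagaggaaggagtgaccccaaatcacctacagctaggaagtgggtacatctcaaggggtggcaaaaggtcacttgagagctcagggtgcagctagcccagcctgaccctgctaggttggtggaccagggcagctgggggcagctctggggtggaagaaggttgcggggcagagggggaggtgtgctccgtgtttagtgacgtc
The Col1a2 stretch holds a CCAAT-box match that begins 109 bases before the transcript start and GC-box matches at 205 and 188 bases. The highest shCTRL summit of that gene lay 80 bases before the start. Col16a1 and Col5a3 also hold a match to each of these boxes, Col8a1 has 4 GC-box matches alone, and Col24a1 has none of the motifs. The printed stretch of Col4a5 has a CCAAT-box match alone. Between the printed stretch and the transcript start, Col4a5 also has a GC-box match 30 bases before the start. Col5a3 has a further one there, at 41 bases. Over the full 250 bases before the start, 13 of 38 collagen windows (34.2%) and 35.4% of 21263 windows of coding genes held the CCAAT box, and 57.9% and 42.6% held the GC box. The TATA box was in 13.2% and 11.6%, the TEAD site in 10.5% and 11.7%, the AP-1 site in 2.63% and 6.13%, and the cyclic AMP response element in 0% and 1.92%. The GC content of these windows had a median of 61.4% (35.2 to 76.4) in 14 members with end summits in both libraries and 56.4% (40.4 to 70.0) in 17 with none, so the ranges overlapped. These groups follow the calls at gene ends and not at transcript starts. Col27a1, with a summit at its transcript start in both libraries, is thus among those with none. Promoter sequences were matched for 35 of the 44 members.

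Among the fibrillar collagens, the genes of types I, III and V, which build most fibres of soft tissue, were all open at a start or end in both lines. Col1a2 (gene 12843, chromosome 6, 4505618 to 4541543), which encodes the second chain of type I collagen, had a highest start pileup of 74 in shCTRL (95% Poisson interval 58.1 to 92.9) and 77 in shHMGB1 (60.8 to 96.2). These are at percentiles 80.1 and 82.2 of coding genes with an end summit. Col1a1 (chromosome 11, 94936224 to 94953042), its partner chain, had 27 (17.8 to 39.3) and 18 (10.7 to 28.4). The 2 chains assemble together, yet the start of Col1a2 was the more open of the pair in each library, with intervals that did not overlap. Col3a1, whose product mixes with type I fibres, had 27 (17.8 to 39.3) and 20 (12.2 to 30.9). Its neighbour Col5a2, which lies beside it on chromosome 1, had 39 (27.7 to 53.3) in each library. Col5a3 had 41 (29.4 to 55.6) and 53 (39.7 to 69.3), and Col5a1 had 24 (15.4 to 35.7) and 16 (9.15 to 26.0). Col11a1, best known from cartilage fibrils, had 35 (24.4 to 48.7) and 34 (23.5 to 47.5). Col11a2 was listed near the limit at different places, at its 3′ end in shCTRL (13) and near its start in shHMGB1 (12), so it gave no matched summit. Col2a1, the main chain of cartilage fibrils, and the fibrillar genes Col24a1 and Col27a1 had no end summit in either library. For Col27a1 the RefSeq transcript start lies 1403 bp inside the annotated gene, and there summits of 18 and 11 were listed within 10 bp of it. Other RefSeq transcript starts inside the annotated ends had summits in shCTRL only, at Col19a1 (11), Col25a1 (15) and an internal start of Col18a1 (15). Over the 35 members with a RefSeq start in the promoter table, 14 (40%) had a summit within 1 kb of one in both libraries, against 53.1% of 17492 coding genes.

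The 6 type IV genes lie as 3 head-to-head pairs, and the pairs differed. Col4a1 and Col4a2 (chromosome 8), the chains of most basement membranes, share a start region with a summit of 22 fragments in shCTRL and 26 in shHMGB1. Col4a3 and Col4a4 (chromosome 1), chains of the kidney and lung membrane, had no summit at either end in either library. Col4a5 (chromosome X, 141475370 to 141689236) had 28 (18.6 to 40.5) and 13 (6.92 to 22.2), intervals that overlap. Its neighbour Col4a6, whose start lies just over 1 kb away, had none within 1 kb and came into the list with a window of 2 kb. The members of a pair share their DNA, so Col4a1 and Col4a2 count as 1 site.

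Genes of type VI, which forms beaded filaments around cells, had pileups below the coding-gene medians (39 and 35) wherever an end summit was listed. The same held for every other member with an end summit except Col16a1, Col1a2, Col5a2 and Col5a3. Col6a2 had 30 (20.2 to 42.8) in shCTRL and 18 (10.7 to 28.4) in shHMGB1, Col6a1 had 17 in each and Col6a3 had 17 and 15. In the cluster of Col6a4, Col6a5 and Col6a6 on chromosome 9, only Col6a6 had an end summit, of 8 fragments (3.45 to 15.8) in shHMGB1 alone. Col8a1, a chain of hexagonal networks of vessel walls and eye, had highest end summits of 27 and 28. They lay upstream, 631 bp from the start in shCTRL and 803 bp in shHMGB1. A summit 71 bp from the start held 20 and 21. The partner gene Col8a2 and the growth-plate gene Col10a1 had no end summit. Col7a1, which encodes the anchoring fibrils of skin, had no end summit.

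Among fibril-associated collagens Col16a1 had the most open start of all members. Its summit (gene 107581, chromosome 4, 130047817 to 130099277) held 94 fragments (76.0 to 115) in the shCTRL library and 97 (78.7 to 118) in the other. Divided by the expected pileups these are 33.6 and 57.6. Those heights are at percentiles 87.7 and 89.1 of coding genes with an end summit. Col12a1 (10 and 9) and Col14a1 (12 and 9), which bind type I fibrils, were near the listing limit in both libraries. Col9a3 (17, interval 9.90 to 27.2), Col20a1 (12) and Col9a2 (12) were listed in shCTRL alone. Col9a3 and Col20a1 lie within 1 Mb of each other on chromosome 2, in a stretch with 57.8 and 47.0 peaks per 100 kb around them in shCTRL and 22.9 and 19.3 in shHMGB1. The part of that stretch in their shCTRL summits was not tested. Col9a1, Col19a1 and Col22a1 had no end summit. Of the remaining types, Col26a1 had 14 and 9, Col18a1, the source of endostatin, had 7 fragments at its 3′ end in shHMGB1 alone and 15 at its internal start in shCTRL alone, and Col15a1 and Col28a1 had none.

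No member differed between the lines beyond counting error at its highest matched end summits. Summits of the 2 libraries within 150 bp of each other were compared as a log2 ratio of pileup over expected pileup, shHMGB1 over shCTRL, relative to the median of 11134 coding genes. For 17 members, on 16 distinct sites, the median ratio was 0.16, and 0.11 over the distinct sites; the middle 50% of all genes ran from -0.26 to 0.23. The ratio of Col16a1 was 0.25 (-0.17 to 0.68), that of Col1a2 0.26 (-0.22 to 0.74) and that of Col5a2 0.21 (-0.47 to 0.88). The highest ratio was that of Col8a1 at 0.69 (-0.19 to 1.60) and the lowest that of Col4a5 at -0.90 (-1.97 to 0.10). These were the only members past a 1.5-fold difference, 1 of 17 in each direction, where 3.98% of all genes were past it upward and 8.52% downward. Col5a3 stood just inside it, at 0.58 (-0.04 to 1.20). All 17 intervals included 0, while those of 5.98% of all genes lay above it and of 2.17% below.

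**Figure D2:**
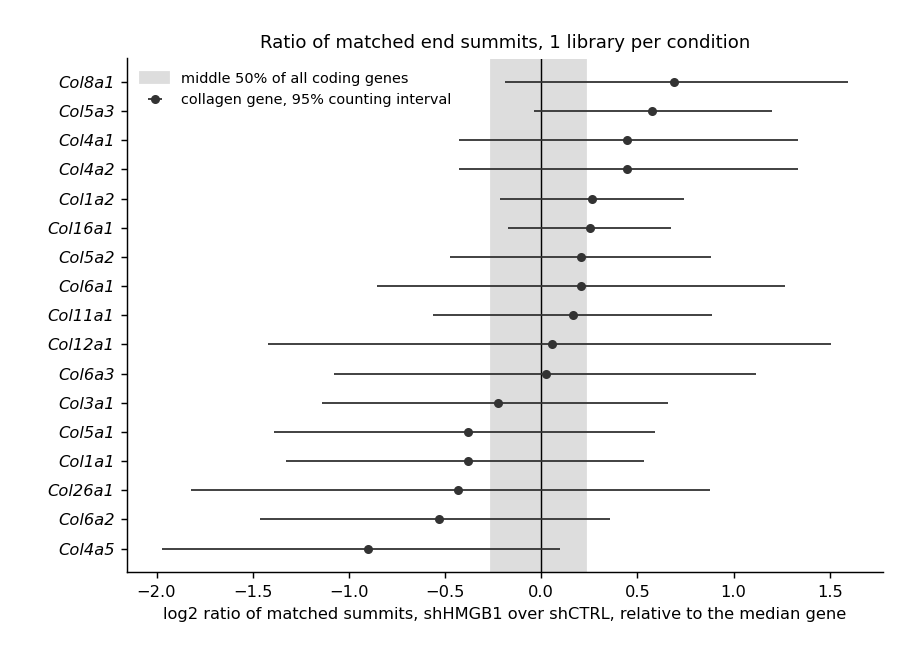
Log2 ratio of matched end summits, shHMGB1 over shCTRL, relative to the median coding gene, for the 17 collagen genes with a matched pair; bars are 95% counting intervals and the grey band spans the middle 50% of all coding genes. Each bar crosses 0, from Col4a5 at -0.90 to Col8a1 at 0.69.

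Neighbouring summits of the same start did not always give the same ratio. In the peak upstream of Col8a1, the pair behind the value above held 20 and 28 fragments, but a pair less than 200 bp away held 27 and 19, a ratio of -0.30 (-1.23 to 0.60). Only 71 bp from the Col8a1 start, a further pair held 20 and 21 (0.28, -0.68 to 1.24). At Col1a2 the nearest shHMGB1 summit to the 74 fragments of shCTRL held 73 (0.19, -0.30 to 0.67), and the next pair held 69 and 77 (0.36, -0.12 to 0.85). At Col16a1 the central summit had a ratio of 0.25, but the nearest summits on either side had ratios below 0. Upstream of the centre the pair held 73 and 41 fragments (-0.63, -1.21 to -0.05) and downstream of it 68 and 31 (-0.93, -1.59 to -0.29). Both intervals lie below 0. Of 50 matched end pairs, counted for each gene, 3 had an interval below 0, all at Col16a1 (3.08% of all such pairs of coding genes), and 1 above (5.38%), at Col5a3 (24 and 53; 1.35, 0.63 to 2.11). In that case the shHMGB1 summit is the one paired above with 41 fragments, and it lay farther from this shCTRL summit, though within 150 bp. Pairs this close share fragments and are not independent.

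Nucleosome-free regions, stretches of low nucleosome occupancy in the deposited lists, were at few collagen ends. Col5a1, Col5a2 and Col16a1 had such a region within 1 kb of an end in both libraries, 3 members against 18.4% of all coding genes. Col1a2, Col4a5 and Col14a1 had one only in the shCTRL list, again 3 members (9.43% of all coding genes). The shHMGB1 list added 0 members (6.59%), and 38 members had no such region (65.6%). The widest region at the Col16a1 start was 211 bp wide with a mean occupancy of 0.036 in shCTRL and 196 bp wide with 0.017 in shHMGB1. The shCTRL list alone held a further region there, 79 bp wide with an occupancy of 0.072. At Col5a1 the widths were 160 and 208 bp and the occupancies 0.041 and 0.039. At Col5a2 they were 276 and 127 bp, and 0.092 and 0.033. The region of Col1a2 in shCTRL was 258 bp wide and covered its 74-fragment summit. No such region was listed there in shHMGB1, where its nearest summit held 73 fragments.

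In most members the tallest peak lay inside the gene, in Col27a1, Col4a6, Col4a2 and Col12a1 most of all. A body peak is one whose highest summit lies between the ends and over 1 kb from both. The members held 387 body peaks in shCTRL and 271 in shHMGB1, and each library had them in 38 members, against 43.7% and 41.6% of all coding genes. In 36 members both libraries had at least 1, against 36.9% of all coding genes. Col9a1 and Col13a1 had body peaks in shCTRL only, Col2a1 and Col8a2 in shHMGB1 only. Members are long, with a median of 114 kb against 17.2 kb for all coding genes. For 27 of 44 members (61.4%) the highest body summit was above the highest end summit in both libraries, against 19.8% of all coding genes. Among genes of 100 kb or more this held for 22 of 26 members (84.6%) and 56.8% of the 2429 genes of that length. No body summit of a member lay within 1 kb of an end of another coding gene. Col10a1 was the only member with no peak at its ends or in its body in either library.

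The strongest body sites were shared by both lines, and several lay in genes with no end summit. Col27a1 held 89 fragments (71.5 to 110) in shCTRL and 86 (68.8 to 106) in shHMGB1 at a site 109552 bp from its lower-coordinate end (chromosome 4, 63323294 to 63323937 in shCTRL), as high as the start of Col16a1 within counting error. Col4a6 held 79 (62.5 to 98.5) and 78 (61.7 to 97.3) at 198120 bp from its lower-coordinate end (chromosome X, 141363322 to 141363875). Col24a1 had a pair of such sites, of 51 and 58 fragments at 128176 bp and of 52 and 54 at 229401 bp from its start. Col15a1 had 53 and 57 near its 3′ end. In Col4a2 the highest body site held 71 and 75, over its start with 22 and 26, and a second site held 50 and 63. In Col12a1, whose end summits were near the limit, 3 sites held 64 and 67, 61 and 75, and 47 and 67 fragments. The map of summits along 6 genes shows these sites, apart from that of Col15a1, which is not drawn, at the same distance in both libraries.

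**Figure D3:**
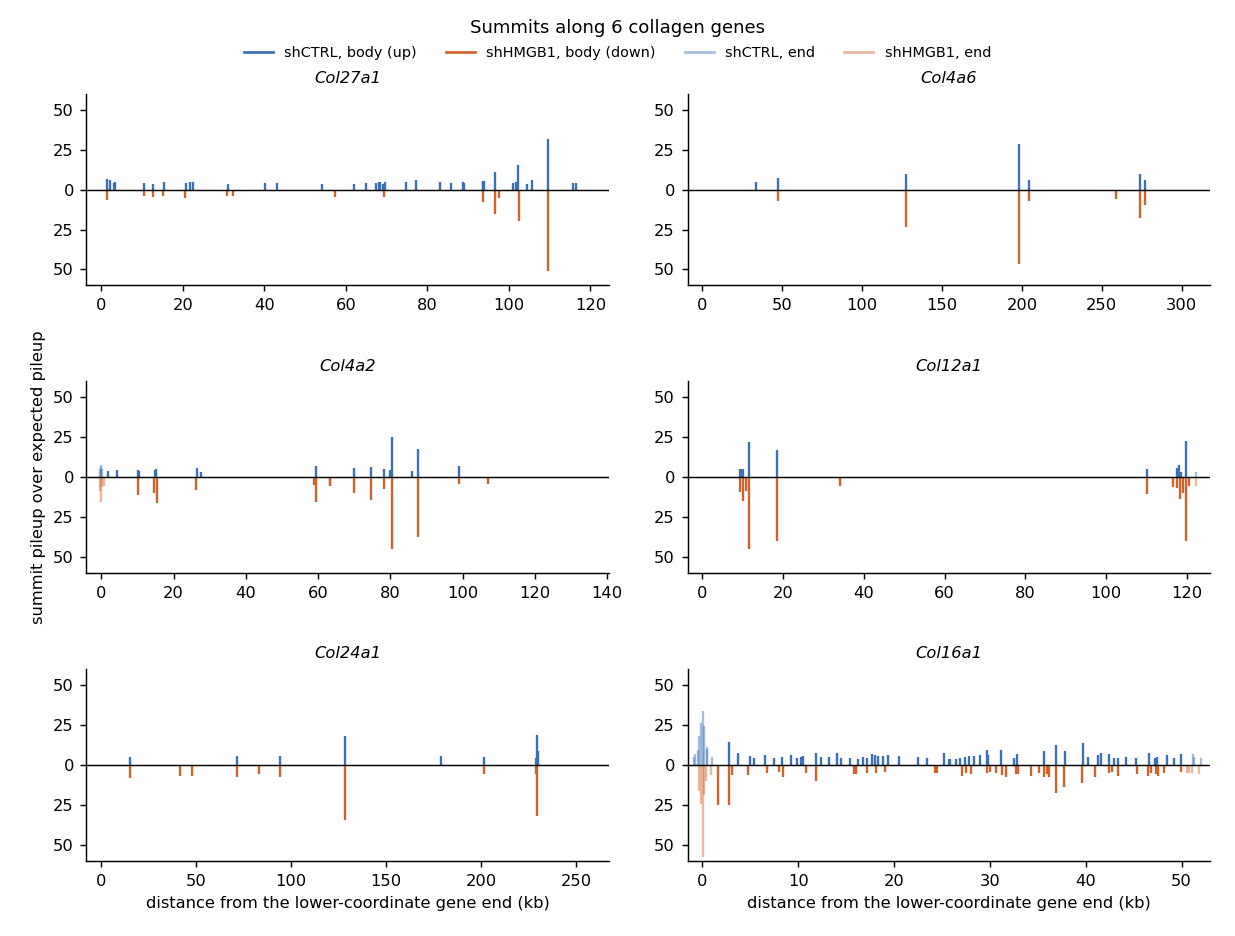
Summit pileup divided by the expected pileup of the library, against the distance in kb from the lower-coordinate end of 6 collagen genes; shCTRL points up, shHMGB1 points down, dark lines are body peaks and pale lines are summits within 1 kb of an end. The tallest body sites of Col27a1 (89 and 86 fragments), Col4a6 (79 and 78) and Col4a2 (71 and 75) stand at the same distance in both libraries, and Col16a1 has many low peaks along its length.

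The tallest matched body sites did not differ between the lines beyond counting error. Relative to the median of 23895 matched body pairs of all coding genes, the ratio was 0.14 (-0.30 to 0.59) at the Col27a1 site, 0.17 (-0.30 to 0.64) at that of Col4a6 and 0.27 (-0.22 to 0.76) at that of Col4a2. The 157 pairs of the members had a median of -0.13. Of these 15 were at least 1.5-fold higher in shHMGB1 (9.09% of all body pairs were) and 32 at least 1.5-fold lower (12.3%). The interval lay above 0 for 4 pairs (4.67% of all) and below for 6 (1.63%). Those above were the site of Col12a1 with 47 and 67 fragments (0.70, 0.14 to 1.27), and sites in Col26a1 (34 and 54), Col4a4 (24 and 38) and Col8a1 (33 and 47). Those below were 3 sites in Col16a1, and sites in Col8a1 (22 and 7), Col15a1 (22 and 8) and Col18a1 (25 and 10).

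Col16a1 supplied 11 of the 32 pairs past 1.5-fold downward, and the stretch around it was also below the median gene body. Its 20 matched body pairs had a median of -0.68, with 17 below 0, while its start summit stood at 0.25. The 627 matched pairs within 1 Mb on either side had a median of -0.50, with 548 below 0. Those pairs were not limited to gene bodies and take in peaks at ends of other genes. Without Col16a1 the members had 137 pairs with a median of -0.11, of which 15 were at least 1.5-fold higher and 21 lower. In Col12a1, by contrast, 8 pairs had a median of 0.41, with 27 pairs around it at 0.17. Whether the values of Col16a1 differ from those of its surroundings was not tested.

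The genes with the most body peaks in shCTRL were Col16a1 and Col27a1, both denser in peaks than their surroundings. Counts around a gene take in all peaks, those at ends of other genes included, while body counts leave out gene ends. The densities inside and around a gene are thus unlike measures. Col16a1 held 60 body peaks in shCTRL and 45 in shHMGB1, or 121 and 91 per 100 kb, with 81.1 and 70.1 per 100 kb in the 1 Mb on either side. Col27a1 held 39 and 14, or 32.8 and 11.8 per 100 kb, with 9.46 and 9.96 around it. Col11a2 held 13 and 1, or 50.5 and 3.88 per 100 kb, with 13.3 and 9.16 around it, so its order turned between the libraries. Col20a1 held 29 and 11, Col26a1 26 and 4, and Col5a1, Col9a3 and Col22a1 had 20 each in shCTRL and 12, 6 and 14 in shHMGB1. In shHMGB1 the members with most were Col16a1, Col8a1 (17), Col4a2 (15), Col15a1 (14), Col22a1 (14) and Col27a1 (14). Body peaks were more numerous in shCTRL in 21 members, in shHMGB1 in 16 and equal in 7. This split was not counted for all coding genes. Per 100 kb the members had 7.23 peaks in shCTRL against 5.06 in shHMGB1 (ratio 1.43), and the stretches around them had 9.94 against 7.64 (ratio 1.3). For all coding gene bodies the ratio was 1.19. Among peaks whose −log10 q reached 10, members held 62 in shCTRL and 63 in shHMGB1, so the excess of shCTRL lay in weaker peaks. An overlapping peak in the other library was listed for 46.0% of shCTRL body peaks (exact Clopper-Pearson 95% interval 40.9 to 51.1) and 67.5% of shHMGB1 body peaks (61.6 to 73.1), against 54.3% and 65.5% of the body peaks of all coding genes. The rest had median pileups of 13 and 9, against 17 and 12 for shared ones. The intervals treat peaks as independent, though peaks were grouped in genes that differed. In shCTRL 7 of 29 body peaks of Col20a1 were shared and 10 of 10 of Col8a1. Whether the shares of the members differ from those of all coding genes was not tested. The part of local peak density and of the listing limits in these counts was not tested.

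**Figure D4:**
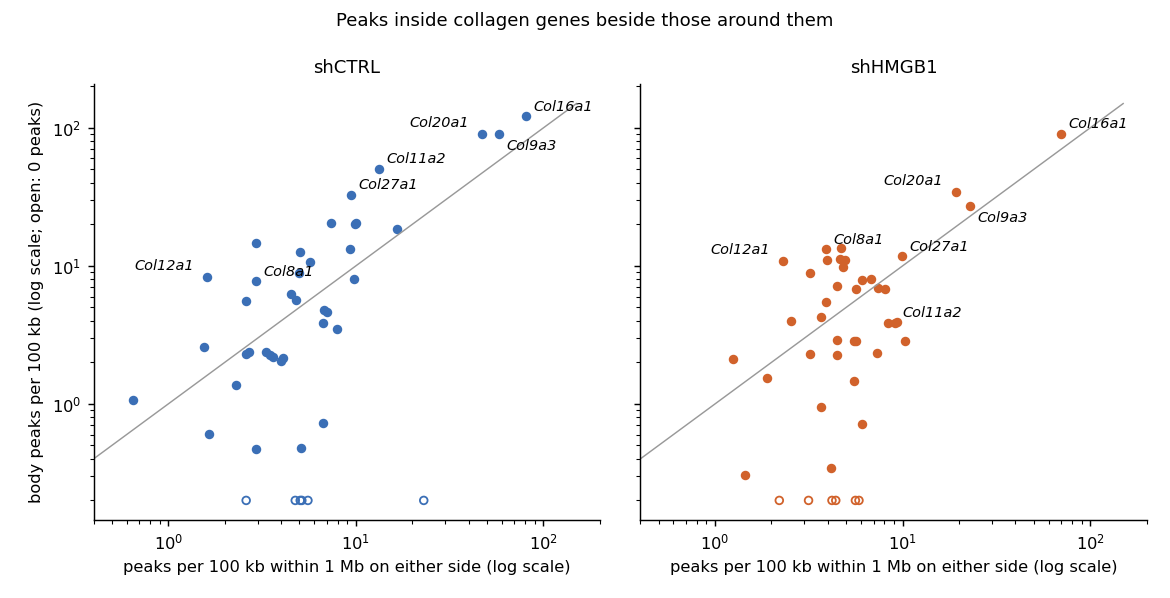
Body peaks per 100 kb of each collagen gene against peaks per 100 kb within 1 Mb on either side, both on log scales, in shCTRL (left) and shHMGB1 (right); the line marks equality and open circles are genes with 0 body peaks. Col16a1, Col20a1 and Col9a3 lie at the upper right in both libraries, and body density was above that of the surroundings in 21 of 44 genes in shCTRL and 20 in shHMGB1. Peaks on either side include those at ends of other genes, whereas body peaks leave out gene ends. Such counts were not made for all coding genes.

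Genes for proteins that make, cross-link, bind or degrade collagen were mostly listed as open at an end, with Lox, Colgalt1 and Ppib the highest. Of 49 such genes 36 had an end summit in both libraries (52% of all coding genes). For 3 it was listed only in shCTRL (5.79%), for 1 only in shHMGB1 (1.73%), and 9 had none (40.5%). P3h4 and Fkbp10, both on chromosome 11, had the same pileups (46 and 47) and were counted separately. Of 21 maturation genes 19 were open in both, among them Colgalt1 (80 and 89), which adds galactose to collagen, Ppib (72 and 81), a prolyl isomerase, and P4ha1 (71 and 47), which encodes a prolyl hydroxylase subunit, and Serpinh1 (37 and 39), the collagen chaperone of the endoplasmic reticulum. Of 13 processing and cross-linking genes 7 were, led by the lysyl oxidase genes Lox (74 and 87; ratio 0.44, -0.02 to 0.91) and Loxl4 (66 and 80; 0.48, -0.00440 to 0.98). Of 9 receptor genes 7 were, with Itgb1 (65 and 55) and Ddr2 (30 and 30), and of 6 degradation genes 3, with Mmp14 (30 and 24). Over 35 genes with a matched summit the median ratio was -0.03, with 1 at least 1.5-fold higher in shHMGB1 (3.98% of all coding genes) and 4 lower (8.52%). The higher one was Ddr2, whose matched pair held 23 and 30 fragments (0.59, -0.24 to 1.44), unlike its highest summits. The 4 lower were Colgalt2, P4ha2, Adamts14 and Itga2. The intervals of the genes named here with a ratio include 0.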

How the data were processed

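Open chromatin was measured by ATAC-seq in 1 shCTRL and 1 shHMGB1 library. Per the submitters' processing notes, reads were handled with Trimmomatic 0.32, BWA 0.7.5-r404, SAMtools, bedtools and MACS2 on mm10 (GRCm38). Their settings and filters, whether reads were shifted for Tn5, and how nucleosome-free regions were called are not given in the sources used here. Groups come from the silencing label.

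The deposited peak lists give, per summit, a score (the whole part of 10 times the −log10 q), a fold, which is a ratio of pileup to expected pileup, and the −log10 p and −log10 q. In the deposited nucleosome-free regions, columns 4 and 5 were read as fractions of occupancy and the others as signal, from layout and values, since the files have no header. Pileups were recovered from the deposited folds as (pileup + 1)/(expected + 1), and were whole within 0.000254 and 0.000153 fragments. Read totals are not given, so depth is known only through the expected pileup.

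Gene ends come from RefSeq GRCm38.p6. Every summit within 1 kb of an end counted as an end summit, and a summit with no listed position (194 and 155) was placed at the centre of its peak. Rows of the same interval were merged for body peaks, and peaks were shared if they overlapped by 1 bp. Poisson, Clopper-Pearson and conditional binomial 95% intervals were computed with scipy 1.17.1, and the calculations were tested on simulated data. The members, lists and settings were chosen with earlier results of these data known. By rule, members with an end summit are given with their pileups, the others by name, and body peaks by number and height; for other genes of the pathway and for sites with an interval off 0, examples were chosen after their values were seen. Sequence of body peaks was not used here.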

Additional observations from a re-analysis of the deposited data

How the results depend on the processing

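No paired analysis was possible because each condition had 1 library, and no replicate could be left out. Of 46 values under alternatives 29 were kept, 16 moved and 1, a ratio, passed from above 1 to just below it. Counts were kept if within 1.5 times of the main count. Shares and ratios of body peaks were kept if within the counting interval. The median log2 ratio was kept if within a binomial interval of the median across members. That interval is not printed, and it reflects spread between genes and not counting error alone. End peaks only in shCTRL were at 1 collagen gene with a window of 500 bp (5.32% of all coding genes) and at 7 with 2 kb (5.65%). At a −log10 q of 5 or more the counts in shCTRL alone and in shHMGB1 alone were 1 and 1 (3.02% and 1.58%), and body peaks numbered 144 and 114. At 10 or more, 11 members had an end peak in both libraries (40.4% of all coding genes), 0 in shHMGB1 alone (1.59%) and 31 had none (54.9%). Body peaks then numbered 62 and 63, a ratio of 0.984, so the excess of shCTRL was gone, with no clear excess of shHMGB1. Leaving out chromosomes 2, 4, 15, 16, 17 and 19 left 151 and 121 body peaks. Leaving out Col16a1, Col20a1 and Col9a3, chosen after seeing the data, left 278 and 209, a ratio of 1.33. With an overlap of at least 50% of both peaks, 26.4% of shCTRL and 37.6% of shHMGB1 body peaks were shared. Not centred on the median gene, the median log2 ratio of the members was 0.69, since the median gene itself stood at 0.52, and relative to genes of the same height it was 0.21. The expected pileups set which weak sites are listed, so peaks in 1 library near 10 or 7 fragments cannot be told from unlisted sites just under the limit.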
